A study of Mus musculus with 200 samples.

Results

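Serpins, a superfamily of proteins most of which block proteases, were followed across single medullary thymic epithelial cells. The family was taken as every gene of the count table whose symbol begins with Serpin, a clade letter from a to i and a number, which gave 67 of 38406 genes. Clades A and B held 28 members each, clade E 3, clades F and I 2 each, and clades C, D, G and H 1 each. Of the 67 members, 51 had at least 1 count and 16 had none. Among the 51, 17 had 1 to 19 counts over all cells, and 34 had at least 20. Of these, 29 were found in at least 5 cells of 1 group. Of the 29, 28 are described with values in every group or, for some of low level, with an upper bound.

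An inhibitory serpin presents a flexible loop that a protease cuts, after which the loop folds into the body of the serpin and traps the enzyme in a covalent complex. Clade B serpins mostly stay inside cells, where they neutralise leukocyte proteases such as cathepsin G, neutrophil elastase and granzyme B, whereas clades A and C to G are mostly secreted into plasma or tissue fluid, and some members, such as the collagen chaperone encoded by Serpinh1, inhibit no protease. In the thymic medulla, epithelial cells display proteins of many other organs to maturing T cells, and the regulator Aire lets these cells transcribe many such genes.

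The cells came from thymi of female B6xNOD mice aged 5 weeks, every one of which carried the AireGFP transgene, a fluorescent marker of Aire expression. They were sorted as CD45-, Ly51- and MHCII+, in a gate of high (GFPhi) or low (GFPlo) fluorescence, from Aire knockout (genotype KO; AireGFP) or wild-type (genotype WT; AireGFP) mice. There were 48 KO GFPhi, 52 KO GFPlo, 61 WT GFPhi and 39 WT GFPlo cells, sorted on 2 dates, with 9, 22, 23 and 18 cells of those groups on the first date. The labels name no animal, so each group counted as 1 sample, no difference was tested, and a difference between genotypes cannot be told apart from one between animals. Group sums were 3011900 counts in KO GFPhi, 1847240 in KO GFPlo, 3468109 in WT GFPhi and 2260672 in WT GFPlo, and totals per cell ran from 2429 to 370365 counts. Levels are counts scaled to a group sum of 1000000 (CPM) with 95% intervals, which cover the counting error of tags and nothing else. In a summed level, fewer cells with a transcript and less transcript per cell cannot be told apart.

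The targeted gene does not check the labels, because they do not say which part of Aire the knockout lacks and reverse transcription began at the poly(A) end. Aire stood at 815 CPM in KO GFPhi and 316 in KO GFPlo, against 537 in WT GFPhi and 244 in WT GFPlo. At least 13 of 14 epithelial markers had counts in every group, with a summed level of 4520 to 6960 CPM. At least 23 of 25 leukocyte markers also had counts in every group, although the sort selected CD45- cells. Their summed level was 1968 CPM in KO GFPhi, 4742 in KO GFPlo, 7900 in WT GFPhi and 6177 in WT GFPlo. Of these markers, Cd3e and Cd8a were at 0 in WT GFPlo. By date the sum was 2320 and 1829 CPM in KO GFPhi, and 3392 and 5524 CPM in KO GFPlo. It was 3047 and 10360 CPM in WT GFPhi, and 1337 and 10668.5 CPM in WT GFPlo. Both WT groups thus had much more leukocyte transcript on the second date. Cells with more leukocyte than epithelial marker counts, called leukocyte-marked below, numbered 2 in KO GFPhi, 19 in KO GFPlo, 9 in WT GFPhi and 7 in WT GFPlo. The 10 markers of fibroblasts and endothelium summed to 101 to 157 CPM in every group.

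The serpin family as a whole was a modest part of the transcriptome, with 22493 counts in all. Its summed level was 1742 CPM in KO GFPhi, 2391 in KO GFPlo, 2043 in WT GFPhi and 2541 in WT GFPlo. Clade B held 78.0% of these counts and clade A 14.8%, and Serpinb1a alone held 21.4%. Between genotypes the family ratio was 0.853 (0.823 to 0.884) for KO over WT in GFPhi cells and 0.941 (0.904 to 0.979) in GFPlo cells. In GFPhi cells the ratio was 0.748 on the first date and 0.947 on the second, and without Serpinb1a it became 1.09 (1.05 to 1.14). In GFPlo cells it was 1.201 on the first date and 0.785 on the second, so the 2 dates gave opposite directions. Between gates the ratio of GFPhi over GFPlo was 0.729 in KO cells, with 0.736 and 0.742 by date, and 0.804 in WT cells, with 1.18 and 0.615 by date. The KO gates thus differed by about the same ratio on both dates, and the WT gates in opposite directions.

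**Figure D1:**
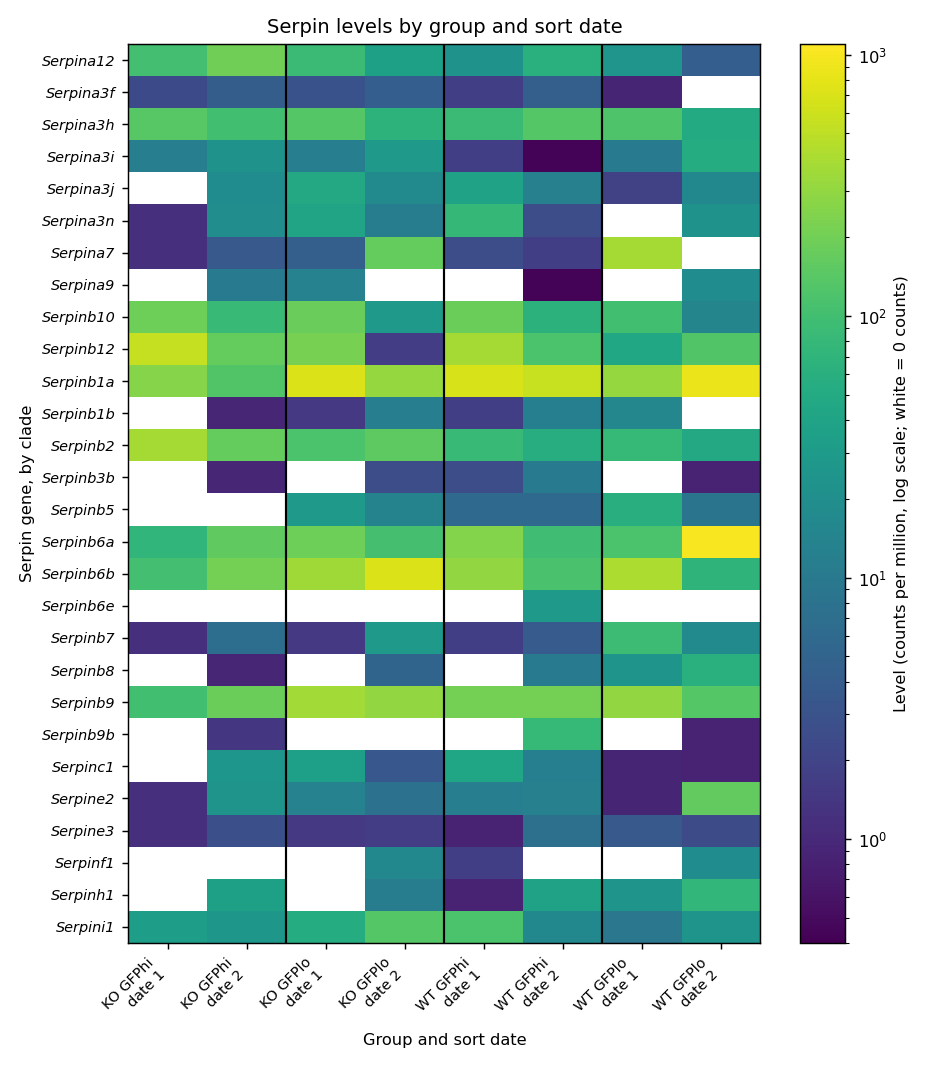
Level of each of the 28 described serpins (rows, ordered by clade) in each group and sort date (columns), as colour on a log scale of CPM, with white for 0 counts. Serpinb1a, Serpinb6a, Serpinb6b and Serpinb9 were found in every column, as were others such as Serpina3h, Serpinb2 and Serpinb10. Serpinb6e appears in 1 column and Serpinb5 is absent from both KO GFPhi columns.

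Most members lie in 3 gene clusters, and the clusters did not share 1 pattern. On GRCm38, 12 members lie on chromosome 1 between 106861173 and 107610484, 27 on chromosome 12 between 103614786 and 104414329, and 16 on chromosome 13 between 32842092 and 34002794. The chromosome 13 cluster, of intracellular clade B genes, summed to 652 CPM in KO GFPhi, 1523 in KO GFPlo, 1237 in WT GFPhi and 1650.4 in WT GFPlo. The dates gave opposite directions for KO GFPlo to WT GFPlo, at 1.41 and 0.693, and for WT GFPhi to WT GFPlo, at 1.28 and 0.527. The cluster's KO over WT ratio in GFPhi cells was 0.527 (0.499 to 0.556), with 0.361 and 0.629 by date. Its GFPhi over GFPlo ratio in KO cells was 0.428, with 0.329 and 0.479 by date. The chromosome 1 cluster, of clade B genes many of which are known from skin and other squamous epithelia, ran the other way, with 630.2 CPM in KO GFPhi, 359 in KO GFPlo, 407 in WT GFPhi and 339 in WT GFPlo. Its KO over WT ratio in GFPhi cells was 1.55 (1.44 to 1.66), with 1.67 and 1.59 by date. The clade A cluster on chromosome 12 stood at 348 CPM in KO GFPhi, 231 in KO GFPlo, 236 in WT GFPhi and 178 in WT GFPlo. Its KO over WT ratio in GFPhi cells was 1.48, with 1.11 (0.928 to 1.32) and 1.65 by date. Its GFPhi over GFPlo ratio in KO cells was 1.51, with 0.813 and 2.24 by date, in opposite directions.

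Single genes made much of each cluster's difference. Without Serpinb1a the chromosome 13 ratio of KO over WT in GFPhi cells was 0.761 (0.711 to 0.813), and without Serpinb2 the chromosome 1 ratio was 1.17 (1.08 to 1.27). Of 7 chromosome 1 members with at least 20 counts over both GFPhi groups, only Serpinb2 was at least 2-fold higher in KO. Another 3 were at least 2-fold lower and 3 were within 2-fold. Of all genes, 19.6% were higher and 27.3% lower. Without Serpina12 the chromosome 12 ratio was 0.937 (0.834 to 1.05), so that the excess in KO GFPhi cells was not left. Leaving out leukocyte-marked cells changed the KO GFPhi to WT GFPhi ratios to 1.21 on chromosome 1, 1.24 on chromosome 12 and 0.416 on chromosome 13, which kept their directions. Between the KO gates the ratio was then 1.095 in place of 1.75 on chromosome 1, 1.02 in place of 1.51 on chromosome 12 and 0.553 in place of 0.428 on chromosome 13. Between the GFPlo groups KO over WT was then 1.78 in place of 1.06 on chromosome 1, 1.56 in place of 1.299 on chromosome 12 and 0.582 in place of 0.923 on chromosome 13. Of the marked cells 19 were in KO GFPlo, and without them the chromosome 12 cluster stood at 354 CPM in KO GFPhi and 348 in KO GFPlo.

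**Figure D2:**
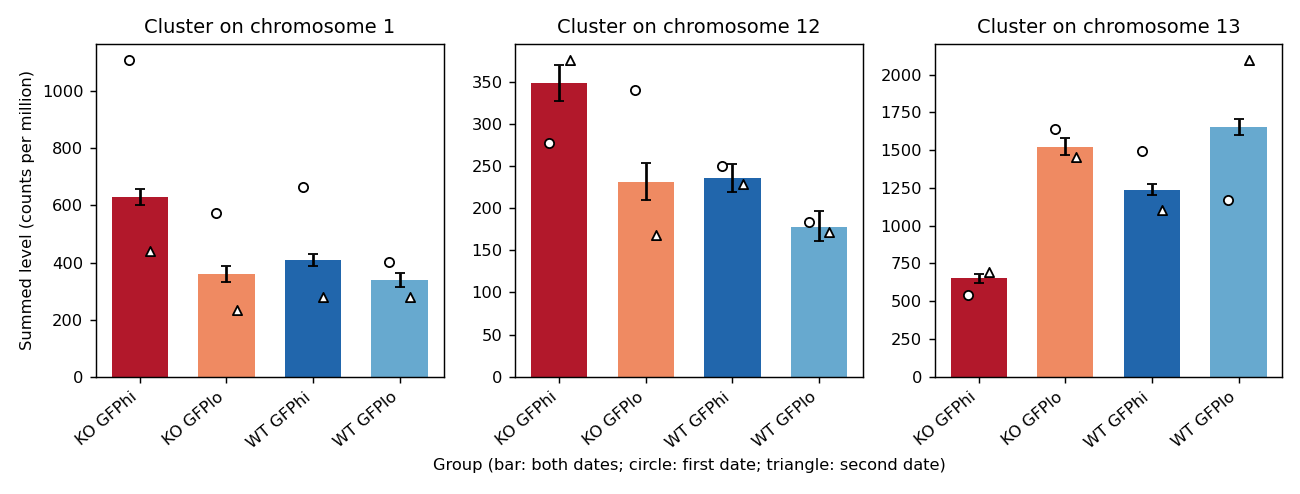
Summed level of the serpins of each gene cluster (CPM) by group, with bars for both dates together, error bars for the 95% counting interval, circles for the first date and triangles for the second. KO GFPhi has the highest bar on chromosomes 1 and 12, at 630.2 and 348 CPM, and the lowest on chromosome 13, at 652 CPM. On chromosome 12 the first-date circle of KO GFPhi, at 277 CPM, lies below that of KO GFPlo, at 341 CPM.

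Among the intracellular inhibitors of chromosome 13, Serpinb1a, an inhibitor of neutrophil elastase and cathepsin G, had the most counts of any serpin and was found in 139 of 200 cells. The gene lies on chromosome 13 from 32842092 to 32851185 on the minus strand. Per cell, its level ran from 0 through a median of 51.7 to 1786 CPM in KO GFPhi, and from 0 through 56.1 to 12926 CPM in KO GFPlo. In WT GFPhi it ran from 0 through 62.9 to 8657 CPM, and in WT GFPlo from 0 through 240.1 to 6063 CPM. All 4 groups overlapped and began at 0, and the KO GFPhi cells lacked the very high cells seen in the other groups.

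In sums, Serpinb1a stood at 166 CPM (152 to 181) in KO GFPhi, 466 (435 to 498) in KO GFPlo, 599 (573 to 625) in WT GFPhi and 606 (574 to 639) in WT GFPlo. It was 3.61-fold lower (3.27 to 3.98) in KO GFPhi than in WT GFPhi, with ratios of 0.385 and 0.230 by date. It was also lower in KO GFPhi than in KO GFPlo, at a ratio of 0.356, with 0.358 and 0.408 by date, although with primers of the kind named umi alone, 47 cells in all, the log2 ratio was 2.39 in place of -1.49. Without the top KO GFPlo cell, which held 37.98% of that group's counts, it was -0.82. Between WT gates the ratio was 0.988, made of 2.13 on the first date and 0.642 on the second. A single cell held 35.1% of the WT GFPhi counts, and the log2 ratio of KO GFPhi to WT GFPhi, -1.85, was -1.26 without it. The share of cells with the transcript differed much less, with 34 of 48 KO GFPhi, 31 of 52 KO GFPlo, 41 of 61 WT GFPhi and 33 of 39 WT GFPlo cells. With cells thinned to 1 common total, reached by 160 of the 200 cells, it was 55% (38.5 to 70.7) in KO GFPhi, 55.8% in KO GFPlo, 62.5% (47.4 to 76.0) in WT GFPhi and 79.3% in WT GFPlo. These intervals treat cells as independent, although each group is 1 sample. Those of KO GFPhi and WT GFPhi overlapped, and a difference in this share was not tested.

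**Figure D3:**
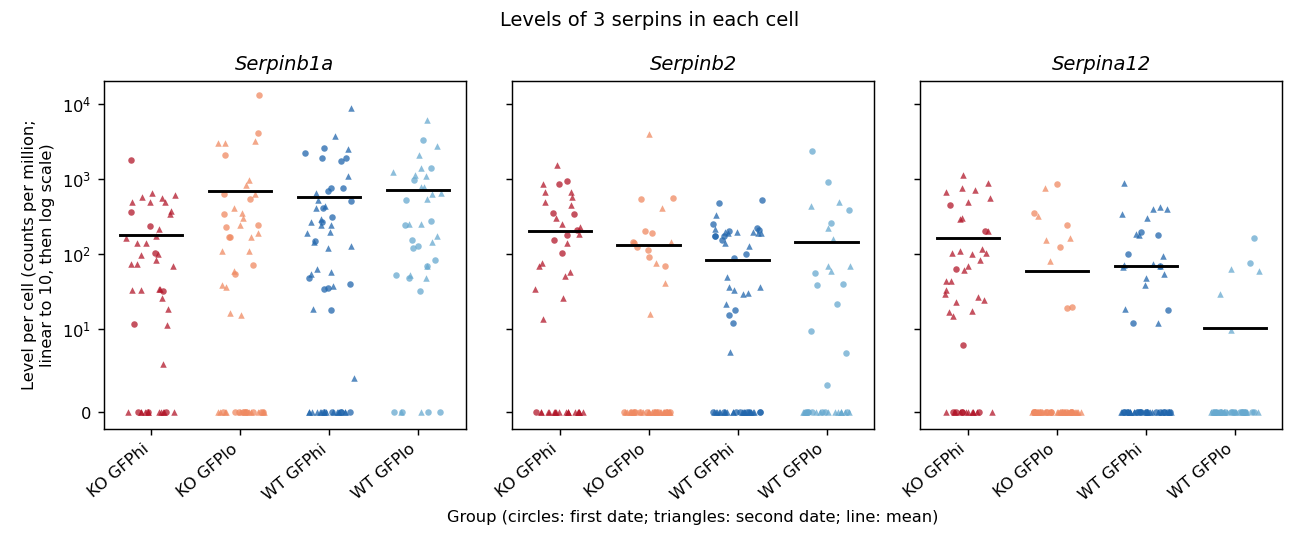
Level of Serpinb1a, Serpinb2 and Serpina12 in each cell (CPM of the cell, linear to 10 and log above), by group, with circles for the first date, triangles for the second and a line at the mean of the cells. Every group has cells at 0, and the highest Serpinb1a cells, up to 12926 CPM, are in groups other than KO GFPhi.

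Serpinb6a and Serpinb6b, relatives of the human cathepsin G inhibitor SERPINB6, were about as widespread but differed in where they were high. Serpinb6a was found in 143 cells, the most of any member, at per-cell medians of 108 CPM in KO GFPhi, 54.1 in KO GFPlo, 79.4 in WT GFPhi and 105 in WT GFPlo. Its summed level was 133 CPM in KO GFPhi, 138 in KO GFPlo, 149.9 in WT GFPhi and 582 in WT GFPlo. The WT GFPlo level came from the second date, with 1012 CPM against 118 on the first, and 1 cell of that group held 41.5% of its counts. The ratio of KO GFPlo to WT GFPlo was accordingly 0.105 on the second date and 1.64 on the first.

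Serpinb6b stood at 182 CPM in KO GFPhi, 585 in KO GFPlo, 177 in WT GFPhi and 234 in WT GFPlo. KO GFPhi was 3.21-fold lower than KO GFPlo (2.90 to 3.57), with ratios of 0.287 and 0.297 by date. Of all Serpinb6b counts, 34.3% were in leukocyte-marked cells, of which KO GFPlo had the most. Without those cells the log2 ratio of KO GFPhi to KO GFPlo was -0.51 in place of -1.68, and that of KO GFPlo to WT GFPlo was -0.17 in place of 1.32. Without these cells KO GFPlo was thus no longer above WT GFPlo, while it was still above KO GFPhi.

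Serpinb9, the inhibitor of granzyme B that protects cells from cytotoxic granules, stood at 159.7 CPM in KO GFPhi, 325 in KO GFPlo, 211 in WT GFPhi and 218 in WT GFPlo. Leukocyte-marked cells held 20.9% of its counts, and its ratios without them are not given. The ratio of KO over WT was 0.756 in GFPhi cells (0.672 to 0.849), with 0.471 and 0.868 by date, and 1.49 in GFPlo cells (1.32 to 1.68), with 1.19 and 2.21 by date. Its direction between genotypes was thus opposite in the gates on both dates, and the difference between the gates was not tested.

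Other genes of the chromosome 13 cluster were rare and uneven. Serpinb1b, a close relative of Serpinb1a, had 0.664 CPM in KO GFPhi, from 2 counts of 1 cell, against 8.12 in KO GFPlo, 8.65 in WT GFPhi and 7.52 in WT GFPlo. Serpinb6e was found in 8 WT GFPhi cells of the second date, at 18.7 CPM, and at 0 in the other 3 groups. It was at least 18.8-fold lower in KO GFPhi, taking 3 counts over the group as the floor, but 1 cell held 52.3% of its counts. Serpinb9b had 53.1 CPM in WT GFPhi, against 0.996 in KO GFPhi, 0 in KO GFPlo and 0.442 in WT GFPlo. Of its 188 counts 75.5% were in leukocyte-marked cells and 58.5% in 1 cell. Serpinb9g had 60 counts in WT GFPhi, of which 78.3% were in 1 cell, none in KO GFPhi, and 1 each in KO GFPlo and WT GFPlo. Serpinb1c, Serpinb6c, Serpinb6d, Serpinb9c, Serpinb9d and Serpinb9f had 4 to 16 counts each, and the pseudogene Serpinb1-ps1 and Serpinb9e had none. These genes are near-identical copies in places, so reads can be split among them and their separate levels are uncertain.

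On chromosome 1, Serpinb2, the intracellular and secreted inhibitor of urokinase also called plasminogen activator inhibitor 2, was highest in KO GFPhi cells. Per cell it ran from 0 through a median of 41.6 to 1507 CPM in KO GFPhi, and from 0 through 0 to 3904 CPM in KO GFPlo. In WT GFPhi it ran from 0 through 15.3 to 522 CPM, and in WT GFPlo from 0 through 0 to 2328 CPM. All 4 ranges began at 0 and overlapped, and the medians of both GFPhi groups were above 0 while those of both GFPlo groups were at 0. Its summed level was 229.8 CPM (213 to 248) in KO GFPhi, 139.7 (123 to 158) in KO GFPlo, 66.3 (58.02 to 75.5) in WT GFPhi and 63.7 (53.7 to 74.99) in WT GFPlo.

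Serpinb2 was 3.46-fold higher (2.98 to 4.04) in KO GFPhi than in WT GFPhi, and the ratio was 4.35 on the first date and 3.06 on the second. With umi primers alone the log2 ratio was 0.23 in place of 1.791. It was 2.19-fold higher (1.78 to 2.71) in KO GFPlo than in WT GFPlo, with 1.44 and 3.21 by date, but 1 cell held 58.1% of the KO GFPlo counts. As a mean over cells the direction turned, with 129 CPM in KO GFPlo and 142 CPM in WT GFPlo. The share of thinned cells with the transcript was 55% (38.5 to 70.7) in KO GFPhi, 30.2% in KO GFPlo, 37.5% (23.95 to 52.6) in WT GFPhi and 37.9% in WT GFPlo. The gene model of Serpinb2 overlaps that of Serpinb10 on the same strand by 6476 bases, and reads from the overlap cannot be told apart.

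Serpinb12, known in humans as an inhibitor of trypsin-like proteases, followed the GFP gate in KO cells. It stood at 275 CPM in KO GFPhi (32 cells), 80.1 in KO GFPlo (14 cells), 206 in WT GFPhi (30 cells) and 88.9 in WT GFPlo (15 cells). The ratio of KO GFPhi to KO GFPlo was 3.44 (2.88 to 4.12), with 2.51 on the first date and 99.6 (27.4 to 826) on the second, when KO GFPlo had 2 counts. Without leukocyte-marked cells its log2 ratio was 1.11 in place of 1.78. In WT cells the ratio of the gates was 2.31 (1.97 to 2.72), with 8.28 and 0.908 by date, so the dates did not share a direction there. Between genotypes in GFPhi cells it was 1.34 (1.21 to 1.48), with 1.42 and 1.46 by date, short of 2-fold.

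Serpinb10, studied in humans as a serpin of blood-forming cells, stood at 116 CPM in KO GFPhi, 84.5 in KO GFPlo, 105 in WT GFPhi and 56.2 in WT GFPlo. Its GFPhi over GFPlo ratio was 1.06 and 2.96 by date in KO cells and 1.82 and 4.44 in WT cells. The first of these, from 191 against 180 CPM, was close to 1 and shows no clear direction. The annotation types Serpinb10 as a polymorphic pseudogene, and 8.74% of its counts were in leukocyte-marked cells. Serpinb5, the gene of maspin, which does not inhibit proteases, had no count in KO GFPhi, against 18.9 CPM in KO GFPlo, 6.06 in WT GFPhi and 32.7 in WT GFPlo. It was at least 6.08-fold lower in KO GFPhi than in WT GFPhi, yet no group had more than 7 cells with it, and 1 WT GFPlo cell held 85.1% of that group's counts.

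Serpinb7, known from human epidermis, and Serpinb8, studied in humans as an inhibitor of furin, were higher in WT GFPlo than elsewhere when summed over the dates. Serpinb7 had 5.31 CPM in KO GFPhi, 18.4 in KO GFPlo, 3.17 in WT GFPhi and 52.6 in WT GFPlo. By date it had 1.47 and 28.2 CPM in KO GFPlo, and 90.1 and 17.9 CPM in WT GFPlo, so the order of these groups turned on the second date. Serpinb8 had 0.664 CPM in KO GFPhi, 3.25 in KO GFPlo, 6.63 in WT GFPhi and 43.3 in WT GFPlo. For Serpinb8 the KO GFPlo level was 13.3-fold lower than the WT GFPlo level (5.92 to 37.3), from 4 cells against 10. On the first date it had 0 counts in KO GFPlo against 26 in WT GFPlo, and on the second the ratio was 0.0836. Leukocyte-marked cells held 21.7% of Serpinb8 counts, and without them the log2 ratio was -3.70 in place of -3.63, whereas with umi primers alone it was 1.11. Serpinb3b, a mouse relative of the squamous cell carcinoma antigens, had 7.50 CPM in WT GFPhi and at most 1.62 CPM in the other groups. Serpinb11 had 32 counts, 62.5% of them in 1 KO GFPlo cell, Serpinb13 had 18, Serpinb3a had 10, all in 1 WT GFPhi cell, and Serpinb3c and Serpinb3d had none.

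Sequence before the gene start was compared because the chromosome 1 cluster had nearly the same ratio of KO GFPhi to WT GFPhi on both dates. RefSeq promoters on GRCm38.p6 listed 52 of the 67 members, and the 250 bases before the start were searched on both strands for the TATA box letters TATAAA, the CCAAT box, the GC box letters GGGCGG, the letters TGANTCA of an AP-1 type site and the letters TTCNNNGAA of a STAT type site, where N is any base. TGANTCA was present in 7 of the 11 chromosome 1 promoters listed, in 21.2% of the 52 members and in 6.87% of 27025 genes. TATAAA was also present in 7 of those 11, in 26.9% of the members and in 12.97% of all genes. The other motifs were not more frequent there than in all genes. CCAAT was present in 3 of the 11, against 34.5% of all genes, GGGCGG in 1, against 32.9%, and TTCNNNGAA in 0, against 7.18%. The 4 chromosome 1 promoters without TGANTCA are those of Serpinb3a, Serpinb3b, Serpinb3c and Serpinb3d, which are near copies of each other. All 4 hold TATAAA, as do those of Serpinb2, Serpinb7 and Serpinb12, so the 7 promoters with TATAAA include these near copies. The cluster had a median of 0 CpG pairs in these 250 bases, against 2 for the 52 members and 6 for all genes. Its median share of G and C was 39.2%, against 48% for the members and 52% for all genes. How far base content bears on the matches was not tested. A match describes letters in this window and does not show a bound site. The 8 matches of TGANTCA in the cluster follow with 9 bases on either side, all on the plus strand, 5′ to 3′, with the motif in capitals.
Serpinb5, chr1:106861026-106861050: agttgggccTGAATCAtgtcttcca
Serpinb12, chr1:106934395-106934419: aaaacaatcTGATTCAcgatcatta
Serpinb11, chr1:107362124-107362148: agtatagtgTGATTCAgaaagcaca
Serpinb11, chr1:107362229-107362253: gtgaagagcTGAATCAtaacaacac
Serpinb7, chr1:107422635-107422659: gggagtgtcTGAGTCAgaggcttta
Serpinb2, chr1:107511320-107511344: gtaaaatgtTGAATCAtacaaagaa
Serpinb10, chr1:107528940-107528964: ttgtgaaagTGAATCAagggtgggg
Serpinb8, chr1:107589974-107589998: tgggaagtgTGAGTCAcagagtgtt

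All 7 genes had counts, but they did not share a pattern over the groups, since Serpinb2 and Serpinb12 were highest in KO GFPhi whereas Serpinb7 and Serpinb8, summed over the dates, were highest in WT GFPlo. Serpinb2, Serpina12 and Serpina3i were at least 2-fold higher in KO GFPhi than in WT GFPhi on each date. Serpinb12 was at least 2-fold higher in KO GFPhi than in KO GFPlo on each date. Serpina3i, which had 1 match of CCAAT and 1 of TTCNNNGAA, is not printed. For Serpinb2, Serpinb12 and Serpina12 the whole 250 bases are given in the direction of the gene, with each match of the 5 motifs in capitals.
Serpinb2, chr1:107511173-107511422, plus strand: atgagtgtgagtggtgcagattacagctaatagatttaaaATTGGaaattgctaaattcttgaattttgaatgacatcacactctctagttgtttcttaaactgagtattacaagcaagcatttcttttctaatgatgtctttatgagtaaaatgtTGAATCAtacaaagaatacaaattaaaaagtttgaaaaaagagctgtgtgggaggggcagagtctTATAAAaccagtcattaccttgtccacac
Serpinb12, chr1:106934199-106934448, plus strand: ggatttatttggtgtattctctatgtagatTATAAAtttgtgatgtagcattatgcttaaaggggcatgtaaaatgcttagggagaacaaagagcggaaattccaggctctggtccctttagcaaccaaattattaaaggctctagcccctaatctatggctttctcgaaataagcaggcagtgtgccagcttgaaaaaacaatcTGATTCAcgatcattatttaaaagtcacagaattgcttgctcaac
Serpina12, chr12:104044444-104044693, minus strand: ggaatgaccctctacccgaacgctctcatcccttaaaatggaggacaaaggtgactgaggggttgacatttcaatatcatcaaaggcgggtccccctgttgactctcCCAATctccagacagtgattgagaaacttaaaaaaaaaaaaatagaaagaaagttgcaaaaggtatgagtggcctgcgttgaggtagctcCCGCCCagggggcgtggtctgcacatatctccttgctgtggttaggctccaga

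In the Serpinb2 sequence the TATAAA begins 29 bases before the start and the TGAATCA 94 bases before it. In the Serpinb12 sequence the TGATTCA begins 45 bases before the start and the TATAAA 220 bases before it. The Serpina12 sequence holds CCAAT 143 bases and CCGCCC, which is GGGCGG on the opposite strand, 53 bases before the start, and neither TATAAA nor TGANTCA.

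Among the clade A genes of chromosome 12, Serpina12, which encodes the adipose tissue hormone vaspin, an inhibitor of kallikrein 7, differed between genotypes in the same direction in both gates. The gene lies on chromosome 12 from 104028769 to 104044443 on the minus strand. Its level per cell ran from 0 through a median of 31.1 to 1109 CPM in KO GFPhi, whereas the median was 0 in each other group, with highest cells of 845 CPM in KO GFPlo, 883 in WT GFPhi and 160.1 in WT GFPlo. It was found in 32 of 48 KO GFPhi, 11 of 52 KO GFPlo, 24 of 61 WT GFPhi and 6 of 39 WT GFPlo cells. KO GFPhi was thus the group with a median above 0, and cells with high levels occurred in the other groups too.

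In sums, Serpina12 stood at 172 CPM (158 to 188) in KO GFPhi, 55.2 (45.02 to 67.03) in KO GFPlo, 48.2 (41.1 to 56.04) in WT GFPhi and 14.2 (9.68 to 19.98) in WT GFPlo. KO over WT was 3.58 (3.0003 to 4.29) in GFPhi cells, with 4.46 and 3.28 by date, and 3.90 (2.60 to 5.999) in GFPlo cells, with 3.57 and 8.42 by date. The GFPhi over GFPlo ratio was 3.12 in KO cells, with 1.17 and 5.56 by date, and 3.40 in WT cells, with 0.933 and 14.3 by date. In thinned cells the share with the transcript was 60% (43.3 to 75.1) in KO GFPhi, 20.9% (10.04 to 36.04) in KO GFPlo, 31.2% (18.7 to 46.3) in WT GFPhi and 6.90% (0.846 to 22.8) in WT GFPlo. In GFPlo cells single cells weighed more, since 1 cell held 43.1% of the KO GFPlo counts and 1 cell 71.9% of the WT GFPlo counts. Without the KO GFPlo cell the log2 ratio of KO to WT was 1.18 in place of 1.95, and without the WT GFPlo cell it was 3.51. Of all Serpina12 counts 0.976% were in leukocyte-marked cells, and without those cells the log2 ratio of KO to WT was 1.42 in place of 1.84 in GFPhi cells and 2.32 in GFPlo cells. The log2 ratio of KO GFPhi to KO GFPlo was then 0.89 in place of 1.64, which is under 2-fold.

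Serpina3 genes, which the mouse has in many copies and which are related to human antichymotrypsin, split into a widespread gene and several patchy ones. Serpina3h, typed as a transcribed pseudogene, was found in 116 cells, with 111 CPM in KO GFPhi, 92.6 in KO GFPlo, 121 in WT GFPhi and 85.4 in WT GFPlo. All 4 of its ratios lay between 0.918 and 1.42 in sum, but by date KO over WT in GFPhi cells was 1.59 and 0.722, and GFPhi over GFPlo in WT cells 0.717 and 2.73, in opposite directions. Serpina3i had 19.6 CPM in KO GFPhi (14 cells), 22.2 in KO GFPlo (16 cells), 0.865 in WT GFPhi (3 counts in 3 cells) and 33.2 in WT GFPlo (12 cells). It was 22.6-fold higher in KO GFPhi than in WT GFPhi (7.38 to 113), with 6.84 (1.46 to 64.2) and 52.2 (8.94 to 2104) by date, and 38.4-fold lower in WT GFPhi than in WT GFPlo (12.6 to 190.2). WT GFPhi was thus the low group, and the other 3 groups lay between 19.6 and 33.2 CPM.

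Serpina3j had 13.6 CPM in KO GFPhi, 28.7 in KO GFPlo, 21.3 in WT GFPhi and 9.29 in WT GFPlo. Serpina3n, whose mouse product inhibits granzyme B, had 14.3 CPM in KO GFPhi, 22.2 in KO GFPlo, 28.3 in WT GFPhi and 11.9 in WT GFPlo, and 1 cell held 64.3% of the WT GFPhi counts. Both changed direction between dates in the GFPhi comparison of genotypes. Serpina3f stayed at or under 3.79 CPM in every group, and Serpina3m had 26 counts, 80.8% of them in 1 WT GFPlo cell. Serpina3a, Serpina3c and the pseudogene Serpina3e-ps had 2 to 19 counts, and Serpina3b, Serpina3g, Serpina3k, Serpina3d-ps and Serpina3l-ps had none. Reads of these copies can be split among them, and the models of Serpina3k and Serpina3l-ps overlap that of Serpina3m.

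Plasma and liver serpins, whose products circulate in blood, were found in few cells. Serpina7, which encodes thyroxine-binding globulin and lies on the X chromosome, had 2.99 CPM in KO GFPhi, 109.9 in KO GFPlo, 2.02 in WT GFPhi and 182 in WT GFPlo. By date it had 4.42 and 171 CPM in KO GFPlo, and 379 and 0 CPM in WT GFPlo. In KO GFPlo 50.7% of the counts were in 1 cell, and in WT GFPlo 91.5% were. Without those cells the log2 ratio of KO GFPhi to KO GFPlo was -4.13 in place of -5.13, and that of WT GFPhi to WT GFPlo was -2.88 in place of -6.40. Serpina9, known in humans from germinal centre B cells, had 7.30 CPM in KO GFPhi (9 cells), 4.87 in KO GFPlo (1 cell), 0.288 in WT GFPhi (1 cell) and 9.73 in WT GFPlo (3 cells), with none of its counts in leukocyte-marked cells. Of the genes for alpha-1-antitrypsin, the main elastase inhibitor of plasma, Serpina1a had 2 counts and Serpina1b had 3, and Serpina1c, Serpina1d and Serpina1e had none. Serpina10, Serpina11 and Serpina1f had 4 to 15 counts, and Serpina5, Serpina6 and the pseudogene Serpina4-ps1 had none. For a member without counts, 3 counts over the group allow a level of up to 0.996 CPM in KO GFPhi, 1.62 in KO GFPlo, 0.865 in WT GFPhi and 1.33 in WT GFPlo.

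Serpinc1, the gene of antithrombin, the plasma inhibitor of thrombin, had 18.3 CPM in KO GFPhi, 15.2 in KO GFPlo, 22.8 in WT GFPhi and 0.885 in WT GFPlo. It was 25.7-fold higher in WT GFPhi than in WT GFPlo (6.90 to 216), where it had 2 counts, with ratios of 47.6 (8.16 to 1915) and 14.3 (2.36 to 583) by date. In KO GFPlo 1 cell held 78.6% of the counts, and without leukocyte-marked cells the log2 ratio of KO GFPlo to WT GFPlo was 0.69 in place of 3.802. Serpind1, the gene of heparin cofactor II, had 34 of its 35 counts in WT GFPhi, with 85.7% of all in 1 cell. Serpinf2, the gene of the plasmin inhibitor antiplasmin, had 14 counts in 3 WT GFPhi cells. Serping1, the gene of the complement C1 inhibitor, had 53 of its 55 counts in WT GFPlo, with 85.5% of all in 1 cell.

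Serpine2, an extracellular inhibitor of thrombin and urokinase, was found in 29 cells. Serpine2 had 17.6 CPM in KO GFPhi, 9.74 in KO GFPlo, 12.4 in WT GFPhi and 85.8 in WT GFPlo, but 1 WT GFPlo cell held 96.9% of that group's counts. Without that cell the log2 ratio of KO GFPlo to WT GFPlo was 1.72 in place of -3.10, and without leukocyte-marked cells, which held 64.3% of its counts, it was 1.48. Serpine3, of unclear function, stayed at or under 5.19 CPM in every group.

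Serpini1, which encodes neuroserpin, a brain inhibitor of tissue plasminogen activator, was found in 64 cells. It stood at 28.6 CPM in KO GFPhi (14 cells), 106 in KO GFPlo (17 cells), 49.9 in WT GFPhi (25 cells) and 16.8 in WT GFPlo (8 cells). KO GFPlo was 6.28-fold above WT GFPlo (4.42 to 9.14), with ratios of 5.78 and 5.69 by date, and the log2 ratio was 2.06 without the top KO GFPlo cell, in place of 2.64. Leukocyte-marked cells held 20.7% of its counts, and without them the log2 ratio was 2.52. It ran from 0 through a median of 0 in each of these groups to 1683 CPM in KO GFPlo and 220.3 CPM in WT GFPlo. In GFPhi cells the ratio of KO over WT was 0.572 (0.437 to 0.746), with 0.282 and 1.67 by date, so the dates gave opposite directions. Serpini2 had no count.

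Serpinh1, the collagen chaperone of the endoplasmic reticulum, had 25.9 CPM in KO GFPhi (23 cells), 7.04 in KO GFPlo (5 cells), 25.95 in WT GFPhi (14 cells) and 50.9 in WT GFPlo (14 cells). KO GFPlo was 7.23-fold lower than WT GFPlo (4.06 to 13.99). On the first date it had 0 counts in KO GFPlo against 26 in WT GFPlo, and on the second the ratio was 0.146. Nearly all its counts in GFPhi cells were of the second date, with none in KO GFPhi and 1 in WT GFPhi on the first. Serpinf1, the secreted pigment epithelium-derived factor, which does not inhibit proteases, had no count in KO GFPhi, 10.3 CPM in KO GFPlo, 0.577 in WT GFPhi and 9.73 in WT GFPlo, and 55.8% of its counts were in leukocyte-marked cells.

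Grouped by role, the squamous epithelium serpins summed to 514 CPM in KO GFPhi, 272 in KO GFPlo, 296 in WT GFPhi and 239 in WT GFPlo. The intracellular inhibitors of leukocyte proteases summed to 652 CPM in KO GFPhi, 1526 in KO GFPlo, 1244 in WT GFPhi and 1694 in WT GFPlo. The plasma and liver serpins stood at 22.2, 126, 45.3 and 218 CPM in the same order of groups, and the serpins without inhibitory activity at 28.9, 146, 34.6 and 276 CPM, with Serpina7 in both sums. By date the plasma and liver sum was 39.8 and 176 CPM in KO GFPlo, and 449 and 2.56 CPM in WT GFPlo, and the sum without inhibitory activity was 32.4 and 212 CPM in KO GFPlo, and 461 and 103 CPM in WT GFPlo. For both sums the dates gave opposite directions of KO GFPlo to WT GFPlo, and for the plasma and liver sum also of WT GFPhi to WT GFPlo, with ratios of 0.141 and 14.1. The intracellular sum turned by date too, at 1.38 and 0.676 for KO GFPlo to WT GFPlo. For WT GFPhi to WT GFPlo it was 1.26 and 0.517. The squamous sum was 1.42 and 0.982 by date for KO GFPlo to WT GFPlo, and 1.73 and 0.993 for WT GFPhi to WT GFPlo.

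Counted over the family, the serpins differed between KO GFPhi and WT GFPhi about as often as other genes did. Of 29 members with at least 20 counts over both groups, 4 were at least 2-fold higher in KO GFPhi, or 13.8%, against 19.6% of 13564 genes. They were Serpina12, Serpina3i, Serpina9 and Serpinb2. Another 10 of the 29, or 34.5%, were at least 2-fold lower, against 27.3% of all genes. These were Serpinb1a, Serpinb1b, Serpinb3b, Serpinb5, Serpinb6e, Serpinb8, Serpinb9b, Serpinb9g, Serpind1 and Serpine3, of which 8 belong to clade B. The median log2 ratio of the members was -0.40, against -0.10 for all genes. Where the fold was also required on each date, with at least 10 counts per date, Serpina12, Serpina3i and Serpinb2 remained of 16 members as higher, or 18.8% against 7.87% of 10160 genes. Serpinb1a alone remained as lower, or 6.25% against 10.8%.

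In GFPlo cells 8 of 27 members were at least 2-fold higher in KO, against 21.5% of 12347 genes, and 7 were lower, against 26.6%. Among the higher ones were Serpina12, Serpina3j, Serpinb11, Serpinb2, Serpinb6b, Serpinc1 and Serpini1. The lower ones were Serpina3m, Serpinb6a, Serpinb7, Serpinb8, Serpine2, Serping1 and Serpinh1. On each date Serpina12 and Serpini1 were higher, 2 of 20 members against 8.77% of all genes, and Serpinb8 and Serpinh1 were lower, 2 of 20 against 952 of 9508 genes. Serpina12 was the member that passed on each date in both gates.

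**Figure D4:**
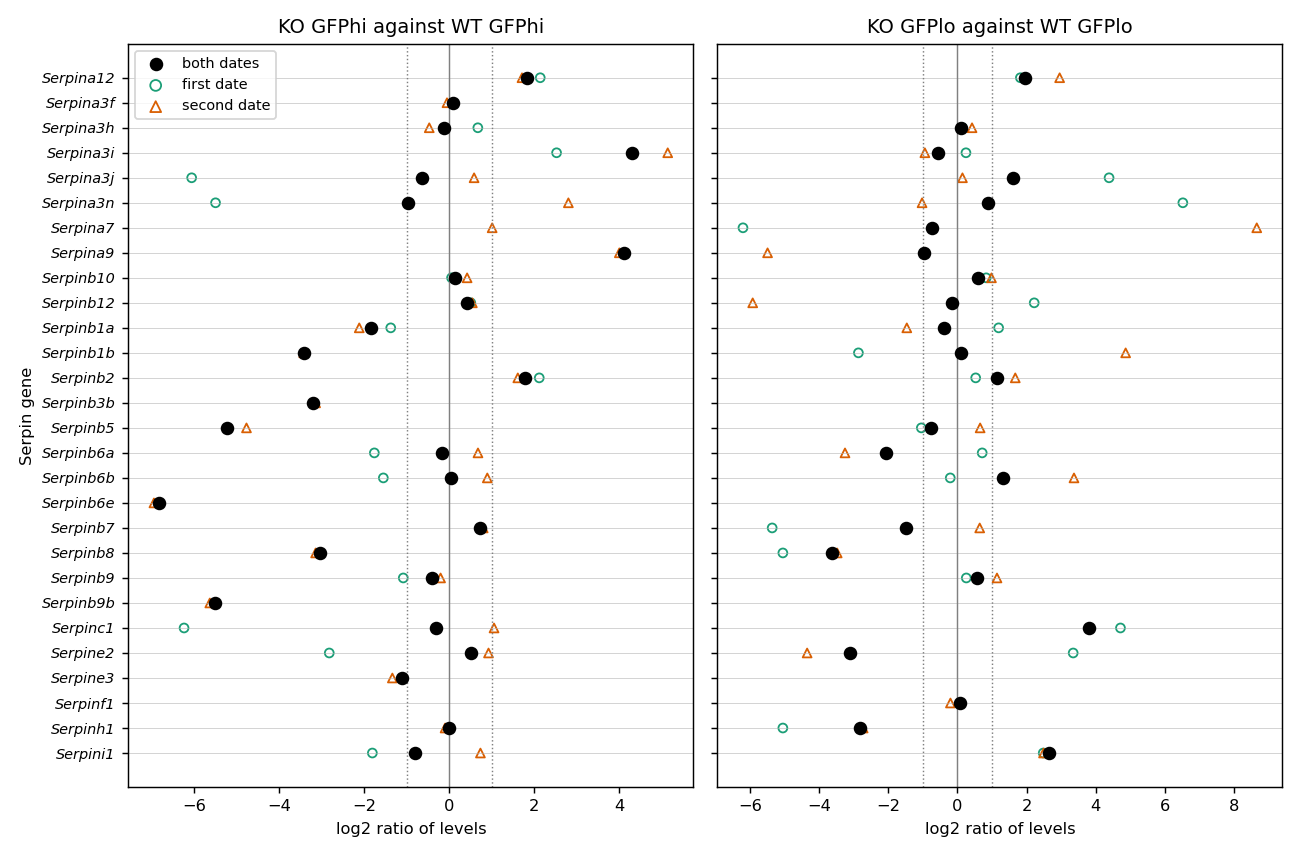
Log2 ratio of levels, with 0.5 count added to each sum, of KO over WT in GFPhi cells (left) and GFPlo cells (right) for the described serpins with enough counts, with filled points for both dates, circles for the first and triangles for the second. Dotted lines mark 2-fold. Serpina12 is right of the upper line on both dates in both panels, whereas Serpina3n and Serpinb6b lie on opposite sides of 0 by date.

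Between the gates, 12 of 32 members were at least 2-fold higher in WT GFPhi than in WT GFPlo, against 25.7% of 13544 genes, and 11 were lower, against 23.6%. Required on each date, 2 of 21 members were higher, Serpinc1 among them, against 10.3%, and Serpina3i, Serpinb7 and Serpinb8 were lower, against 8.87%. In KO cells 3 of 22 members, Serpina12, Serpinb12 and Serpinh1, were higher in GFPhi than in GFPlo, against 23.6% of 12420 genes. Another 9 of the 22 were lower, against 24.4%. On each date Serpinb12 was higher, 1 of 16 against 9.41%, and Serpinb1a, Serpinb5 and Serpinb6b were lower, against 10.7%. The comparisons of genotypes and of gates share groups, so their ratios are not independent of each other.

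Within a cell several serpins were found together. In the thinned cells, the number of serpin genes with a count ran from 2 through a median of 6 to 13 in 40 KO GFPhi cells, and from 2 through 6 to 11 in 43 KO GFPlo cells. It ran from 1 through 6 to 11 in 48 WT GFPhi cells, and from 1 through 6 to 10 in 29 WT GFPlo cells. The 4 groups had the same median, and their ranges overlapped. Without thinning the medians were 9, 7, 8 and 8 in the same order of groups, whose median totals per cell were 42732, 23115.5, 34324 and 26266 counts.

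**Figure D5:**
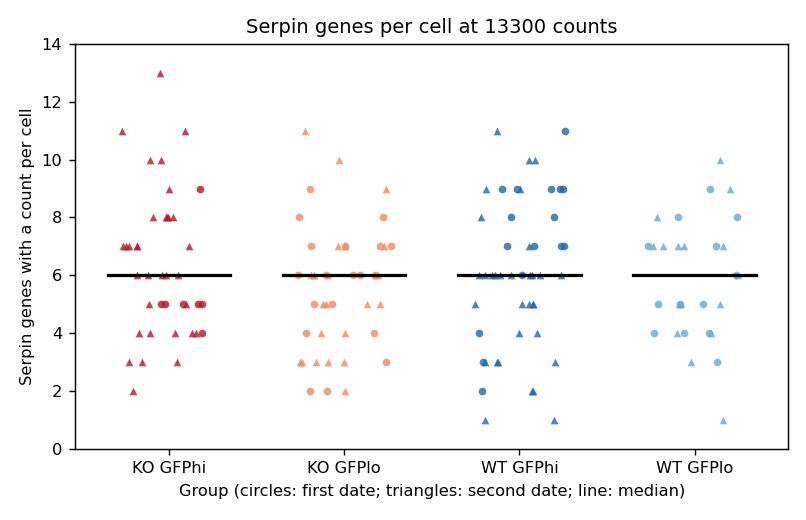
Number of serpin genes with a count in each cell thinned to the common total, by group, with circles for the first date, triangles for the second and a line at the median. The median is 6 in every group, and the cells run from 1 to 13 genes.

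Pairs of serpins were found in the same cell slightly more often than their separate shares give. Over 351 pairs of 27 genes found in at least 10 cells, the cells with both summed to 6163, against 5479 from the product of the shares within group and date, a ratio of 1.12. With thinned cells, where 171 pairs of 19 genes remained, the ratio was 1.05, and within library pools it was 1.05. Thinning left fewer genes and cells, so its ratio is not one of the same pairs. What lowered the ratio was not tested. Pairs within 1 gene cluster had a ratio of 1.13 and other pairs 1.12, and thinned these were 1.04 and 1.05. Of the 171 thinned pairs, 88 had a ratio above 1, and the median pair ratio was 1.015. As examples of pairs above 1, Serpinb12 and Serpinb2 were found together in 36 thinned cells, against 27.5 from their shares. Serpina3h and Serpinb12, on different chromosomes, were found together in 35, against 26.8.

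Proteases, receptors and other inhibitors of the same pathways were counted in the same way. Of 25 genes of proteases that serpins inhibit or bind, 15 had enough counts in GFPhi cells, of which 3 were at least 2-fold higher in KO and 4 lower, against 19.6% and 27.3% of all genes. In GFPlo cells 3 of 13 were higher and 7 lower, against 21.5% and 26.6% of all genes. The members with most counts were the cathepsins Ctss, Ctsh and Ctsb. Ctss, the protease that trims the invariant chain of MHC class II, had 720 CPM in KO GFPhi, 945 in KO GFPlo, 440.0 in WT GFPhi and 487 in WT GFPlo. By date Ctss had 247 and 538 CPM in WT GFPhi, and 489 and 484 CPM in WT GFPlo, in opposite directions. In KO GFPlo it had 513 and 1196 CPM by date. Ctsb had 104 CPM in KO GFPhi, 341 in KO GFPlo, 342 in WT GFPhi and 243 in WT GFPlo, and its ratio of KO over WT in GFPhi cells was 0.304, with 0.365 and 0.281 by date. Ctsh had 643 CPM in KO GFPhi, 735 in KO GFPlo, 483 in WT GFPhi and 437 in WT GFPlo. By date Ctsh had 320 and 771 CPM in KO GFPhi, and 398 and 526 CPM in WT GFPhi, in opposite directions.

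Of the 7 receptors and cofactors, Sdc4, a heparan sulfate proteoglycan of the kind that binds antithrombin, had 85.0 CPM in KO GFPhi, 241 in KO GFPlo, 122 in WT GFPhi and 1980 in WT GFPlo. WT GFPlo was high on both dates, and the ratio of KO GFPlo to WT GFPlo was 0.122, with 0.111 and 0.171 by date. Of the 16 other protease inhibitors, which are not serpins, 13 had enough counts in each comparison of genotypes, and 5 were lower and 1 higher in KO in each gate. Of all genes, 27.3% were lower and 19.6% higher in GFPhi cells, and 26.6% were lower and 21.5% higher in GFPlo cells. The cystatin Cst6 had 119.9 CPM in KO GFPhi, 462 in KO GFPlo, 644 in WT GFPhi and 1334 in WT GFPlo. By date Cst6 had 1623 and 148 CPM in WT GFPhi, and 301 and 2292.5 CPM in WT GFPlo, so the WT gates differed in opposite directions. In KO GFPhi it had 137 and 113 CPM by date, and in KO GFPlo 122 and 659 CPM. The cystatin Cstb had 462, 513, 601 and 538 CPM and the metalloprotease inhibitor Timp3 had 617, 302, 432 and 524 CPM in the same order of groups. By date Cstb had 894 and 292 CPM in KO GFPlo, and 688 and 398 CPM in WT GFPlo, in opposite directions.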

How the data were processed

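The transcripts of 200 single cells were counted after oligo-dT priming and linear amplification by in vitro transcription, per the labels' protocols. The authors deposited whole-number counts per gene and cell without normalization. The submitters' processing notes name the build mm10 and the tools HTSeq, SAMtools 0.1.19, Picard, TopHat and TopHat2, and give neither their roles nor their order. Whether molecular identifiers were collapsed is not given in the sources used here. Since 40 cells had more counts than identifiers listed for them, counts were treated as tags. The metadata also give, per the file headers, flow cytometer intensity in arbitrary units and a sort date.

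All 200 cells were used, in 12 library pools and on 2 dates, with 153 cells of the primer kind ls and 47 of umi, without a filter on cells or a step for doublets. No pair of cells had identical counts. Counts were summed per group. The 95% intervals are exact: Poisson for levels, binomial (Clopper-Pearson) for shares, and binomial given the summed count for ratios. Tags copied by amplification are not independent molecules, so these intervals are narrower than the error between animals or sorts. A group at 0 was set at 3 counts for a bound on a fold. For log2 ratios, 0.5 was added to both counts. A member was read as at least 2-fold different if its ratio reached 2-fold and it had at least 20 counts over both groups. For a fold on each date it also needed at least 10 counts on each date.

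Thinning drew the same number of counts from each cell without replacement, and left out 8 KO GFPhi, 9 KO GFPlo, 13 WT GFPhi and 10 WT GFPlo cells. Gene positions came from GENCODE release M21 (GRCm38), which names all 67 members, and upstream sequence from RefSeq (GRCm38.p6). An entry named SERPINB10 in capitals, at 0 counts, is outside the rule. The separate values of 1 member are not reported here. Members, marker lists and role lists were chosen with earlier results of these data known. The named members are those with at least 20 counts and 5 cells in 1 group, a set of well-known serpins, and the 3 genes with most counts of each other list, while genes with fewer counts are given by their counts. Alternatives were each date, each primer kind, each pool left out, cells of low total or with leukocyte markers left out, TMM scaling (edgeR 4.0.16 in R 4.3.3), per-cell means and other count minimums. Sums, intervals and plots were made with scipy 1.17.1, pandas 2.3.3, numpy 2.4.6 and matplotlib 3.10.9 under Python 3.11.15.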

Additional observations from a re-analysis of the deposited data

Results flagged for a closer look

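Serpinb9, the gene of the granzyme B inhibitor, had a log2 ratio of KO to WT of -0.40 in GFPhi cells and 0.58 in GFPlo cells. It stood out because the direction between genotypes was opposite in the 2 gates on both sort dates. Both log2 ratios were under 2-fold, and how many other genes turn in this way was not counted. Leukocyte-marked cells held part of its counts, and its ratios without them are not given. With 1 sample per group, the difference between the gates was not tested.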

How the results depend on the processing

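No paired analysis was possible because no result comes from a test, with 1 sample a group. Values are log2 ratios unless counts are named.

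For the family level, KO GFPhi to WT GFPhi was -0.23, and became -0.42 on the first date, -0.079 on the second, -0.30 with umi primers, -0.55 without leukocyte-marked cells, -0.18 with TMM scaling and 0.13 without Serpinb1a. KO GFPlo to WT GFPlo was -0.09, and became 0.26 and -0.35 by date, -0.15 with ls primers, 0.25 with umi primers, -0.25 without leukocyte-marked cells and -0.0083 without Serpinb1a. WT GFPhi to WT GFPlo was -0.31, and became 0.24 and -0.70 by date, -0.47 with ls primers, 0.48 with umi primers, -0.18 without leukocyte-marked cells, -0.40 as a mean over cells and -0.42 without Serpinb1a. KO GFPhi to KO GFPlo was -0.46, and became -0.53 with ls primers, -0.066 with umi primers, -0.59 as a mean over cells, -0.34 with TMM scaling and -0.29 without Serpinb1a. With each library pool left out in turn these ran from -0.35 to -0.13, from -0.33 to 0.000124, from -0.46 to -0.15 and from -0.54 to -0.30.

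Of members at least 2-fold different between KO GFPhi and WT GFPhi, the 4 higher became 2 on the first date and 10 with no count minimum, and the 10 lower became 20 with no minimum. Between KO GFPlo and WT GFPlo the 8 higher became 4 with umi primers and 13 with no minimum, and the 7 lower became 14 with no minimum. Between WT GFPhi and WT GFPlo the 12 higher became 19 with no minimum, and the 11 lower became 7 on the first date and 5 with umi primers. Between KO GFPhi and KO GFPlo the 3 higher became 7 on the second date, 5 with ls primers, umi primers, means over cells or a minimum of 10 counts, and 10 with no minimum. The 9 lower became 5 on the second date, 4 with umi primers, 18 with no minimum and 5 where the interval had to lie past 2-fold. With a pool left out, the higher and lower counts ran from 3 to 5 and 7 to 13, from 7 to 9 and 6 to 11, from 10 to 13 and 9 to 12, and from 3 to 5 and 7 to 10, in the same order of comparisons.

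Serpin genes per cell averaged 6.38 in KO GFPhi, 5.58 in KO GFPlo, 6.04 in WT GFPhi and 5.86 in WT GFPlo. In that order they were 9.12, 6.73, 8.69 and 7.87 without thinning, 4.77, 3.92, 4.44 and 4.26 at 6000 counts, and 3.98, 3.53, 4.04 and 3.72 with at least 2 counts. At 25000 counts they were 7.69 in KO GFPhi, 7.92 in WT GFPhi and 7.43 in WT GFPlo. On the first date they were 5.43 in KO GFPhi and 7.19 in WT GFPhi, and without leukocyte-marked cells 6.32 in KO GFPlo. The co-detection ratio of 1.12 was 1.18 with at least 2 counts, and 1.05 thinned or within pools.

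Among single genes whose ratio interval lay past 2-fold, these turned direction. For KO GFPlo to WT GFPlo, Serpinb11, at 3.46, was -1.58 on the second date and -1.21 with umi primers. Serpinb6a, at -2.07, was 0.72 on the first date and 0.32 with umi primers. Serpinb6b, at 1.32, was -0.21 on the first date and -0.17 without leukocyte-marked cells. Serpinb8, at -3.63, was 1.11 with umi primers. Serpine2, at -3.10, was 3.35 on the first date, 4.46 with umi primers, 1.48 without leukocyte-marked cells and 1.72 without the top WT GFPlo cell, and ran from -3.86 to 1.49 with a pool left out. For WT GFPhi to WT GFPlo, Serpine2, at -2.78, was 3.17, 4.80, 2.42 and 2.04 in those settings, and -3.58 to 1.86 over pools. Serpina12 was -0.10 on the first date. Serpina7 was 2.20 on the second date and 2.69 with umi primers. Serpina9 was 0.93 with ls primers. Serpinb5 was 0.19 without the top WT GFPlo cell. Serpinb6a was 1.10 on the first date, and Serpinb7 1.84 and Serpinb9b -0.48 with umi primers. Serpinf1 was 2.22 on the first date and 1.76 without leukocyte-marked cells. Serping1 was 0.61 and Serpini1 -0.58 on the second date. Over pools, Serpina3m ran from -4.72 to 0.082, Serpinb5 from -3.01 to 0.30 and Serpinb9g from -0.64 to 6.23. For KO GFPhi to KO GFPlo, Serpinb1a was 2.39 with umi primers.

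Among cluster sums, an alternative chosen after seeing the data, like those without the top cell, chromosome 1 was -0.31 for WT GFPhi to WT GFPlo without Serpinb12. Chromosome 12 without Serpina12 was -0.093 for KO GFPhi to WT GFPhi and -0.0033 for KO GFPhi to KO GFPlo. Chromosome 13 without Serpinb1a was 0.016 for KO GFPlo to WT GFPlo. In all, 33 of the single-gene settings turned direction, 168 moved beyond counting error and 929 did neither. Where a setting leaves out cells or a gene, the change lies in what was left out, and otherwise the cause was not tested. Depth limits genes with few counts: below 20 counts over a pair of groups no fold was read, and a level under 0.865 to 1.62 CPM is below 3 counts.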
